A study of Homo sapiens with 9 samples.

Results

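The genes described here encode the machinery that starts messenger RNA synthesis, namely the subunits of RNA polymerase II (Pol II), the general transcription factors, the Mediator complex and the kinases CDK7, CDK8 and CDK9. A list of 55 such genes was matched by gene symbol to the probe sets of a whole-genome expression array, and 54 of them had a probe set that named that gene alone, out of 19775 genes measured. MED6, a subunit of the Mediator head, was not analysed here. The 54 genes were covered by 121 of 54613 probe sets, which are groups of short probes read together as 1 measurement. RNA came from 3 lines of HaCaT cells, a spontaneously immortalized human keratinocyte line, with 3 arrays per line. NLS-actin cells stably expressed β-actin fused to green fluorescent protein and to a nuclear localization sequence (NLS), which moves actin into the nucleus. WT-actin cells stably expressed the same actin and fluorescent protein without that sequence, and parental HaCaT cells had received no construct. Both actin lines were made by transfection and drug selection of a fluorescent population and kept their own actin genes. Each construct was measured in 1 line, so that the effect of a construct and other differences between lines cannot be told apart.

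Pol II transcribes the protein-coding genes of the nucleus. At a promoter, TFIID, which contains the TATA-binding protein TBP and its associated factors (TAFs), marks the start site, TFIIA and TFIIB join it, Pol II arrives with TFIIF, and TFIIE brings in TFIIH, which opens the DNA and phosphorylates the tail of the largest polymerase subunit. Mediator, a large complex of head, middle, tail and kinase modules, carries signals from DNA-bound regulators to this assembly. The kinase CDK9 later releases paused polymerase into elongation. β-actin itself has been found bound to RNA polymerases and in chromatin-remodelling complexes, and the comparisons below ask whether the messenger RNAs of this machinery differed between cells given nucleus-directed actin and cells without it.

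Values are MAS5 signals as deposited, on a linear scale, and every array has nearly the same trimmed mean (500 to 500.1). A difference therefore stands relative to the total signal of the array. Fewer cells making a transcript and less transcript per cell cannot be told apart in such samples. The ratio of the 3' to the 5' control probe sets of ACTB, which rises as RNA is shortened or less fully copied, was 6.96, 12.8 and 7.98 on the NLS-actin arrays, 14.9, 6.79 and 3.82 on the WT-actin arrays and 4.998, 7.96 and 6.28 on the parental arrays. NLS-actin replicate 2, WT-actin replicate 1 and parental replicate 2 had the highest ratio of their lines and departed from the other arrays of the line. The same ratio of GAPDH controls was 1.69, 1.64 and 1.95 on the NLS-actin arrays. It was 3.07, 1.52 and 1.39 on the WT-actin arrays and 1.60, 1.40 and 1.41 on the parental arrays. By GAPDH, WT-actin replicate 1 was again the highest of its line, while NLS-actin replicate 2 and parental replicate 2 were the lowest of theirs. Whether the ACTB controls also read the constructs is not given in the sources used here. Results are given below also with these 3 departing arrays left out together where that moved them. ACTB, the gene carried by both constructs, had signals of 14470, 13890 and 15480 in NLS-actin cells, 22130, 15920 and 14100 in WT-actin cells and 8874, 13240 and 14980 in the parental line, with overlap. The place of its probes in the construct is not given in the sources used here, so these signals do not check the labels. The measured keratinocyte markers KRT5, KRT14 and DSG3 were bright on all 9 arrays, while the melanocyte and leukocyte markers stayed below a signal of 100 on each array, as did those of endothelium except VWF on NLS-actin replicate 2. Of 4 fibroblast genes, COL1A1 alone was above that level (284 to 1057), and COL1A2, PDGFRA and DCN were at or below 21.6.

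The DNA before the start site of 4 genes is shown because the results below turn on them, a choice made after their values were seen. Each line gives the 200 bases ahead of the start site in the GRCh38.p14 build, from RefSeq, written 5′ to 3′ on the strand of the gene. Capitals mark matches, on either strand, to TATAAA, which is the core of the TATA box, to CCAAT, the box named after it, to GGGCGG, the core of Sp1 sites, to CCGGAAG, which is an ETS-type site and reads CTTCCGG when it lies on the other strand, or to the CArG box of serum response factor. None of these motifs overlaps another in the 4 windows. For MED1 the window is chr17:39451264-39451463 on the minus strand, for POLR2A chr17:7484166-7484365 on the plus strand. For TAF1 it is chrX:71366157-71366356 on the plus strand, ahead of the first of its 2 listed starts, and for GTF2H1 chr11:18322367-18322566 on the plus strand.
MED1: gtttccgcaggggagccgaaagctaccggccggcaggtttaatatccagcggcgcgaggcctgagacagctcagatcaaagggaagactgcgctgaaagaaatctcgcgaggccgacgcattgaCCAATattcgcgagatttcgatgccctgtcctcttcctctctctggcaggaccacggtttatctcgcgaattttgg
POLR2A: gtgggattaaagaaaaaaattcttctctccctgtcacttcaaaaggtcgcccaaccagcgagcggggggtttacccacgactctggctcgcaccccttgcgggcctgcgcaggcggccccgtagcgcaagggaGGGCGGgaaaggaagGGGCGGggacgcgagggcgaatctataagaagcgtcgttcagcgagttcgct
TAF1: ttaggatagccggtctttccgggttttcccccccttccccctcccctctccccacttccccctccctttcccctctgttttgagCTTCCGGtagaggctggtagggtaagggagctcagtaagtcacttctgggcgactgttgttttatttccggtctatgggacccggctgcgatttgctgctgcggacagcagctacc
GTF2H1: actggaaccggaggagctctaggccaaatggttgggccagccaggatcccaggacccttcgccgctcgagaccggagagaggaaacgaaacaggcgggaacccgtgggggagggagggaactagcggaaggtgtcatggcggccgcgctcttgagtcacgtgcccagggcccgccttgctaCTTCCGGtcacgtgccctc

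The window of MED1 held 1 CCAAT, that of POLR2A 2 GGGCGG, and those of TAF1 and GTF2H1 1 CCGGAAG each, and none of the 4 held TATAAA or a CArG box. Over the 45 listed genes with a promoter entry, CCGGAAG was found in 15 (33.3%, against 9.32% of 27305 genes with an entry), GGGCGG in 25 (55.6% against 43.9%), CCAAT in 12 (26.7% against 32.7%), TATAAA in 2 (4.44% against 10.5%) and the CArG box in 0 (0% against 1.22%). The 27305 genes were not limited to genes measured on the array or above the median level. A gene with several listed starts was counted when any of its windows held the motif. These are matches of letters and carry no statement on binding.

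In NLS-actin cells against parental cells, MED1, the Mediator subunit that nuclear receptors contact, had the largest negative difference among the genes of the machinery above the median level, with a signal of 418 ± 53.7 against 787 ± 102 (SD, n = 3 each). POLR2A, the catalytic subunit of Pol II, was higher by 0.48 on the log2 scale, and most subunits of every complex lay close to 0. None of the 54 genes passed an adjusted p of 0.05 in limma, against 0.131% of all 19775 genes. At an unadjusted p under 0.05, 2 genes were higher (POLR2A and POLR2G) and 4 lower (POLR2E, POLR2H, TAF1 and MED1), which is 11.1% of the 54 genes against 6.44% of all genes (2.48% higher and 3.96% lower) and 7.16% of the 11979 genes above the median level. In Tukey's test there were 0 at an adjusted and 2 (POLR2H and TAF1, both lower) at an unadjusted p under 0.05. Of all 19775 genes, that test gave 272 higher and 460 lower at an unadjusted p. All NLS-actin arrays lay above all parental arrays for 3 genes and below them for 8 (20.4% in all, against 13.9% of all genes, 6.44% higher and 7.5% lower, and 16.1% of those above the median level). The median log2 fold change of the 54 genes was -0.01, and that of all genes -0.01.

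WT-actin cells against parental cells gave a count of 0 at an adjusted p of 0.05 in limma, against 0.167% of all genes. GTF2H1 and POLR2G were higher and TAF1 lower at an unadjusted p under 0.05, which is 5.56% of the 54 genes against 6.69% of all genes (2.49% higher and 4.2% lower) and 8.1% of those above the median level. Tukey's test gave 3 genes at an unadjusted p, GTF2H1 and MED8 higher and TAF1 lower, and 0 at an adjusted p. Of all 19775 genes, it gave 255 higher and 484 lower at an unadjusted p. The arrays did not overlap for 8 genes (14.8% against 12.3% of all genes and 13.4% of those above the median level), 4 higher and 4 lower (4.71% and 7.6% of all genes). The median was -0.05 against -0.06 for all genes. In NLS-actin against WT-actin cells the limma count was again 0 (0.728% of all genes), with POLR2A higher and MED1, MED17 and GTF2H1 lower at an unadjusted p under 0.05 (7.41% against 9.47% of all genes, 5.39% higher and 4.09% lower, and 11.2% of those above the median level). Tukey's test gave 3 there at an unadjusted p, all lower (GTF2H1, MED8 and MED17), and 0 at an adjusted p. Of all 19775 genes, it gave 558 higher and 484 lower at an unadjusted p. The arrays did not overlap for 7 genes (13% against 13.9% of all genes and 15.5% of those above the median level), 2 higher and 5 lower (8.12% and 5.73% of all genes). The median was 0.01 against 0.03 for all genes. The 3 comparisons share arrays, so that their values are given side by side and are not independent of each other. By unadjusted p in limma and by overlap of arrays, the share of the 54 genes was above that of all genes in NLS-actin against parental cells. By both it was below that of all genes in NLS-actin against WT-actin cells. In WT-actin against parental cells it was below by the p in limma and above by the overlap. This summary does not cover Tukey's test. There, NLS-actin against parental cells gave 2 of the 54 genes, beside 272 higher and 460 lower of all 19775. In limma, that comparison gave 6 genes with all arrays and 2 without NLS-actin replicate 3 or without parental replicate 2. Over all genes these fits with 1 array left out gave 470 higher and 707 lower, and 587 higher and 640 lower, respectively.

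**Figure D1:**
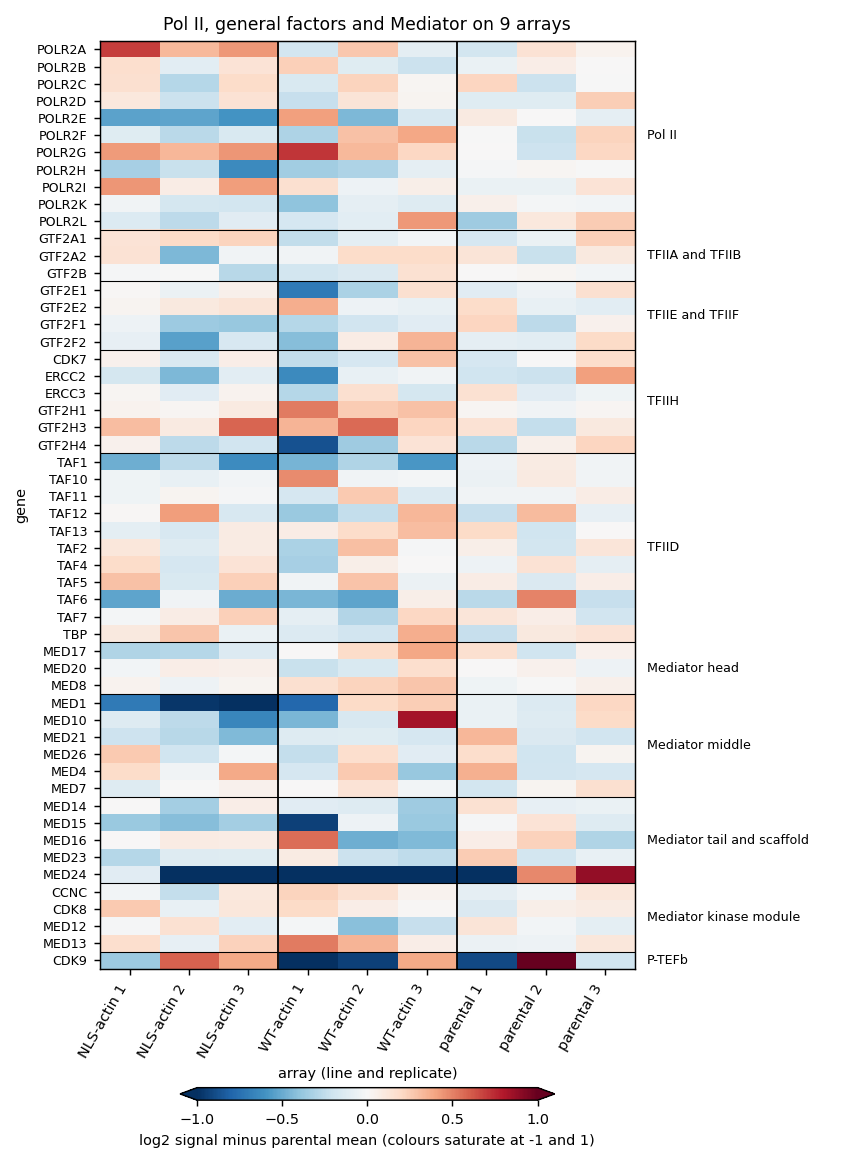
Colour shows the log2 signal of each of the 54 genes (rows, by complex) on the 9 arrays (columns, by line and replicate) minus the mean of the 3 parental arrays. Most tiles are pale, MED1 is blue on the 3 NLS-actin arrays and on WT-actin replicate 1, and the strongly coloured CDK9 and MED24 rows belong to dim probe sets.

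Pol II has a catalytic core formed by POLR2A and POLR2B and a set of smaller subunits, of which POLR2E, POLR2F, POLR2H, POLR2K and POLR2L also belong to Pol I and Pol III. POLR2A, which carries the heptad-repeat tail read by the transcription kinases, had signals of 1957, 1512 and 1634 in NLS-actin cells, 1066, 1462 and 1132 in WT-actin cells and 1066, 1337 and 1242 in the parental line. Each NLS-actin array was above every other array, and WT-actin and parental arrays overlapped. The log2 fold change was 0.48 against parental cells (standard error 0.18, unadjusted p = 0.018, adjusted p = 0.624 from limma), 0.48 against WT-actin cells (adjusted p = 0.36) and -0.002 for WT-actin cells against parental cells. Without the 3 departing arrays it was 0.64 against parental cells (adjusted p = 0.425). Its 2 other probe sets, both below the median level, gave log2 fold changes of 0.33 and -0.16 there.

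POLR2G, a subunit of the stalk that binds emerging RNA, had signals of 6657, 6239 and 6758 in NLS-actin cells, 8155, 6227 and 5733 in WT-actin cells and 4979, 4289 and 5727 in the parental line. Both actin lines lay above all parental arrays and overlapped each other, with log2 fold changes of 0.40 in NLS-actin cells (adjusted p = 0.662) and 0.42 in WT-actin cells (adjusted p = 0.64). Left out together, the 3 departing arrays took the WT-actin value to 0.16. POLR2I, known from yeast to aid proofreading, showed 3882, 3010 and 3831 in NLS-actin cells, 3194, 2762 and 2991 in WT-actin cells and 2734, 2732 and 3152 in the parental line. Its NLS-actin replicates 1 and 3 were above all other arrays and replicate 2 was within the parental range, a log2 fold change of 0.31 (adjusted p = 0.788).

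Lower signals were found among the subunits that the polymerases share. POLR2E gave 395, 397 and 378 in NLS-actin cells, 761, 419 and 512 in WT-actin cells and 611, 574 and 537 in the parental line. The NLS-actin arrays were the lowest of all 9, at a log2 fold change of -0.56 against parental cells (standard error 0.22, adjusted p = 0.682) and -0.49 against WT-actin cells (unadjusted p = 0.0504), where the difference was -0.26 without the 3 departing arrays. Its dimmer probe set had log2 fold changes of -0.50 against parental cells and 0.25, the opposite sign, against WT-actin cells. For POLR2H the signals were 2063, 2225 and 1668 in NLS-actin cells, 2043, 2103 and 2444 in WT-actin cells and 2571, 2632 and 2592 in the parental line. Parental arrays were the 3 highest, and both actin lines were lower, with log2 fold changes of -0.40 for NLS-actin (adjusted p = 0.637) and -0.25 for WT-actin cells (adjusted p = 0.792). On its brightest probe set POLR2K was likewise below the parental arrays in both lines without overlap, with log2 fold changes of -0.13 in NLS-actin and -0.20 in WT-actin cells. The highest NLS-actin array read 1798 and the lowest parental array 1806. Its second probe set overlapped in both comparisons and gave -0.26 and 0.01. POLR2B, the second large subunit, had 6001, 4972 and 5874 in NLS-actin cells, 6289, 4912 and 4597 in WT-actin cells and 5087, 5582 and 5363 in the parental line, with overlapping lines. The log2 difference was 0.07 between NLS-actin and parental cells. The remaining POLR2C, POLR2D, POLR2F and POLR2L had log2 fold changes of -0.18 to 0.02 in NLS-actin cells against parental cells and of -0.03 to 0.13 in WT-actin cells.

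**Figure D2:**
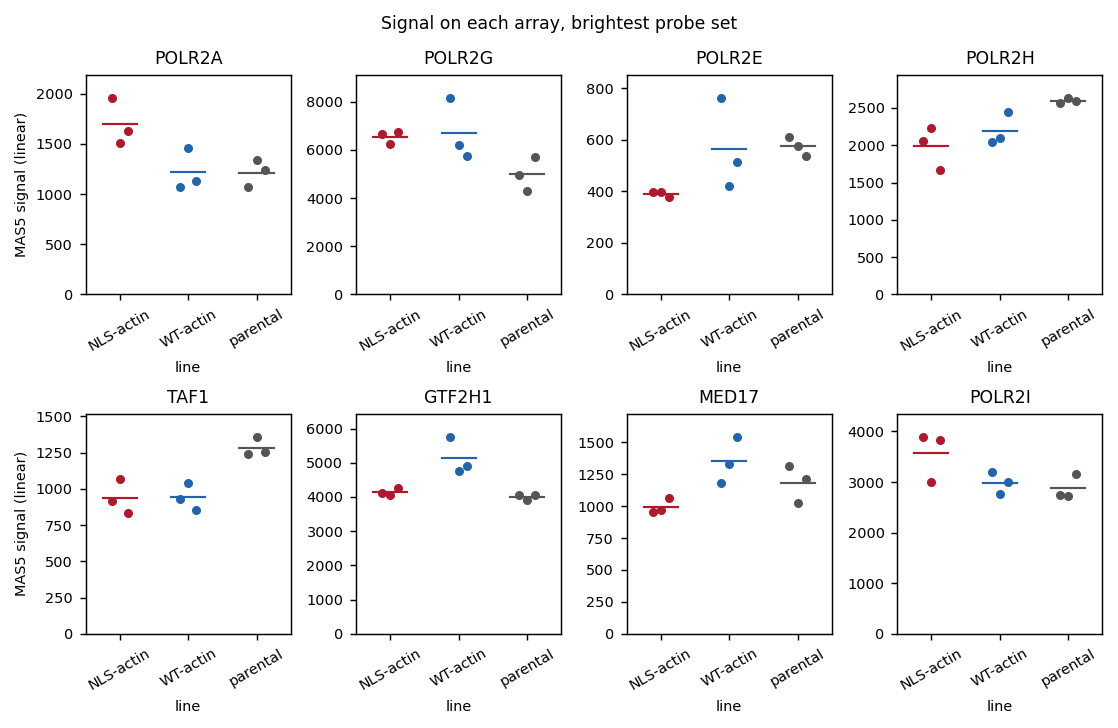
Points are the MAS5 signals of single arrays on a linear axis from 0 and lines the means of 3 arrays, for 8 genes in the NLS-actin, WT-actin and parental lines. POLR2A was highest in NLS-actin cells, TAF1 was lower in both actin lines than in the parental line, and GTF2H1 was highest in WT-actin cells.

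TFIIA and TFIIB, which stabilize TBP on the promoter and position the polymerase, showed small differences. GTF2B, the single subunit of TFIIB, had signals of 1501, 1510 and 1247 in NLS-actin cells, 1330, 1372 and 1686 in WT-actin cells and 1518, 1536 and 1486 in the parental line, overlapping in every pair of lines. The log2 fold changes were -0.10 and -0.06 in NLS-actin and WT-actin cells against parental cells. GTF2A1, the precursor of the large TFIIA subunits, measured 3478, 3624 and 3695 in NLS-actin cells, 2679, 2965 and 3116 in WT-actin cells and 2823, 3023 and 3735 in the parental line. Every NLS-actin array was above every WT-actin array (0.30 on the log2 scale, unadjusted p = 0.0522, adjusted p = 0.534), while the parental arrays spanned both. GTF2A2, the small TFIIA subunit, had a log2 difference of -0.11 in NLS-actin cells.

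TFIIE and TFIIF load TFIIH and the polymerase. Their 4 genes had log2 fold changes between -0.27 (GTF2F1) and 0.08 (GTF2E2) in NLS-actin cells and between -0.29 (GTF2E1) and 0.08 (GTF2E2) in WT-actin cells, with no unadjusted p under 0.05. GTF2E1 varied widely among WT-actin arrays, at 1854, 1765 and 1904 in NLS-actin cells, 1126, 1479 and 2060 in WT-actin cells and 1700, 1775 and 2060 in the parental line. Its lowest value was on WT-actin replicate 1. Without the 3 departing arrays the log2 fold change of WT-actin cells was -0.10 instead of -0.29.

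TFIIH joins the DNA helicases ERCC2 and ERCC3 with a kinase module around CDK7. GTF2H1, a structural core subunit, had signals of 4107, 4066 and 4257 in NLS-actin cells, 5742, 4769 and 4905 in WT-actin cells and 4056, 3915 and 4051 in the parental line. WT-actin arrays lay above all others, and the NLS-actin and parental arrays differed by little, although they did not overlap. The difference on the log2 scale was 0.35 in WT-actin cells against parental cells (standard error 0.12, unadjusted p = 0.0134, adjusted p = 0.58 from limma), 0.05 in NLS-actin cells and -0.31 between NLS-actin and WT-actin cells (adjusted p = 0.436). The highest of its values was on WT-actin replicate 1. Without the 3 departing arrays the WT-actin value was 0.25 (adjusted p = 0.838). Its other probe sets were also higher in WT-actin cells than in the parental line, by 0.11 and 0.17.

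GTF2H3, another core subunit, read 1833, 1580 and 2217 in NLS-actin cells, 1873, 2197 and 1719 in WT-actin cells and 1640, 1254 and 1585 in the parental line. All WT-actin arrays were above the parental ones (0.37 on the log2 scale, adjusted p = 0.754), and NLS-actin cells gave 0.33 with overlap. Its second, dimmer probe set had the opposite sign (-0.39 in WT-actin and -0.25 in NLS-actin cells). CDK7, the kinase of TFIIH and of cell-cycle kinases, measured 4421, 3865 and 4481 in NLS-actin cells, 3615, 3820 and 5250 in WT-actin cells and 3811, 4279 and 4837 in the parental line. The lines overlapped throughout, with log2 fold changes of -0.01 and -0.04 in NLS-actin and WT-actin cells against parental cells. The log2 fold changes of ERCC2, ERCC3 and GTF2H4, a subunit that stimulates ERCC3, ranged from -0.24 to -0.02 in NLS-actin cells and from -0.37 to -0.10 in WT-actin cells.

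Among the 11 TFIID genes, on the brightest probe set of each, TAF1 alone had arrays that did not overlap with the parental ones, in both actin lines. TAF1, the largest subunit and the scaffold of TFIID, had signals of 914, 1066 and 830.1 in NLS-actin cells, 929, 1039 and 855 in WT-actin cells and 1240, 1355 and 1251 in the parental line. Every array of both actin lines was below every parental array, and the actin lines overlapped. The log2 fold changes were -0.46 in NLS-actin cells (standard error 0.16, unadjusted p = 0.0146, adjusted p = 0.568) and -0.45 in WT-actin cells (unadjusted p = 0.0162, adjusted p = 0.6), with -0.01 between the actin lines (95% interval -0.36 to 0.34). The direction against parental cells was the same without the 3 departing arrays (-0.52 and -0.40) and with the ACTB control ratio in the fit (-0.51 and -0.47). Its 2 other probe sets were dim, at mean log2 signals of 4.87 and 1.77.

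TBP, which binds the TATA box and serves all nuclear polymerases, measured 1810, 2057 and 1621 in NLS-actin cells, 1539, 1484 and 2179 in WT-actin cells and 1442, 1813 and 1859 in the parental line. The lines overlapped, and the log2 fold changes were 0.10 in NLS-actin cells and 0.01 in WT-actin cells, with 95% intervals of -0.30 to 0.51 and -0.39 to 0.41. Log2 fold changes of the other 9 TAFs ranged from -0.35 (TAF6) to 0.13 (TAF5) in NLS-actin cells and from -0.31 (TAF6) to 0.19 (TAF13) in WT-actin cells. On the brightest probe set, each of them overlapped with the parental arrays in both comparisons. The second probe set of TAF2, at a mean log2 signal of 5.57, had all NLS-actin arrays below all parental arrays (log2 fold change -0.99).

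MED1 belongs to the middle module of Mediator and is the contact of nuclear receptors and of several other regulators. Its brightest probe set had signals of 479, 399.6 and 377 in NLS-actin cells, 455, 895 and 926 in WT-actin cells and 749, 710.4 and 902 in the parental line. All NLS-actin arrays were below all parental arrays, while WT-actin replicate 1 lay among the NLS-actin values and the other WT-actin arrays among or above the parental ones. The log2 fold change of NLS-actin cells was -0.91 against parental cells (standard error 0.26, 95% interval -1.48 to -0.34, unadjusted p = 0.00463, adjusted p = 0.366 from limma) and -0.80 against WT-actin cells (unadjusted p = 0.0105, adjusted p = 0.286). That of WT-actin cells against parental cells was -0.12 (95% interval -0.69 to 0.46).

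The 3 other probe sets of MED1 gave lower signals in NLS-actin cells as well. The second brightest had 279, 247 and 282 in NLS-actin cells, 332, 411 and 856 in WT-actin cells and 709.6, 566 and 631 in the parental line. For the third the values were 142, 128 and 206 in NLS-actin cells, 223, 302 and 966 in WT-actin cells and 550.3, 472 and 452 in the parental line. The dimmest of the 4 showed 179.9, 252 and 174 in NLS-actin cells, 245, 341 and 361 in WT-actin cells and 408, 432 and 386 in the parental line. On each of the 4, every NLS-actin array was below every parental array, with log2 fold changes of -0.91, -1.24, -1.66 and -1.04 and unadjusted p values of 0.000678 to 0.00362 in the fit of all probe sets (adjusted p 0.224 to 0.426). Against WT-actin cells they ranged from -1.37 to -0.65, and WT-actin cells against parental cells from -0.39 to -0.12. On the dimmest probe set all WT-actin arrays were below all parental arrays. WT-actin replicate 3 was the highest WT-actin array on each of the 4. Without it the second brightest and the next gave -0.78 and -0.92 in WT-actin against parental cells (adjusted p = 0.321 and 0.35), and -0.46 and -0.74 in NLS-actin against WT-actin cells, where all arrays gave -0.86 and -1.37. In that fit both passed an adjusted p of 0.05 in NLS-actin against parental cells, at 0.043 and 0.0326. Probe sets of 1 gene share the same RNA and are not replicates of the condition.

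WT-actin replicate 1, which had the lowest MED1 signal of its line on all 4 probe sets, also had the highest ACTB control ratio of the 9 arrays. With that ratio in the fit the log2 fold change of NLS-actin cells was -0.69 against parental cells (adjusted p = 0.281) and -0.66 against WT-actin cells (adjusted p = 0.141). Without the 3 departing arrays it was -0.95 (adjusted p = 0.158) and -1.10 (adjusted p = 0.0362), and without WT-actin replicate 1 alone -1.13 against WT-actin cells (adjusted p = 0.0342), so that MED1 passed the threshold against WT-actin cells in these 2 settings. Without WT-actin replicate 2 the difference against WT-actin cells was -0.64 (adjusted p = 0.688), and without WT-actin replicate 3 it was -0.62 (adjusted p = 0.521). Over the 21 alternatives the value against parental cells ranged from -1.21 to -0.69 and its adjusted p from 0.103 to 1.

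**Figure D3:**
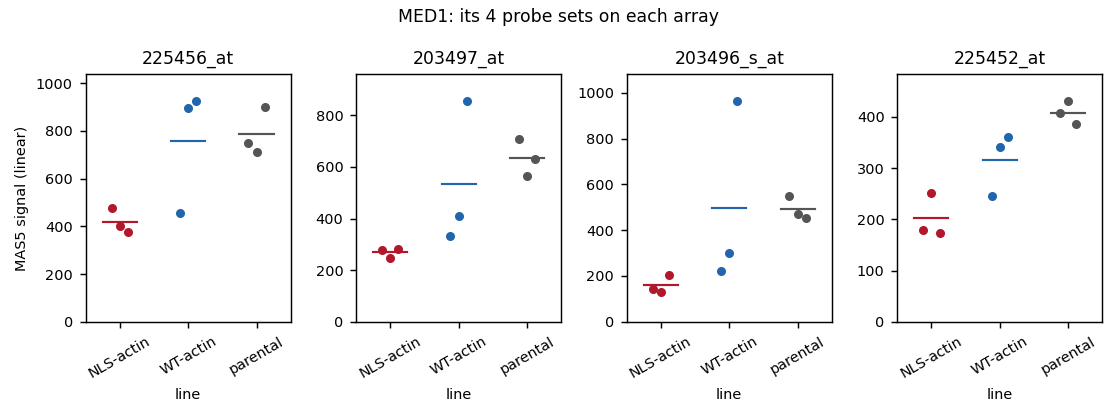
Points are the MAS5 signals of single arrays on linear axes from 0 and lines the means of 3 arrays, for the 4 probe sets of MED1 in the NLS-actin, WT-actin and parental lines. The 3 NLS-actin arrays lie below the 3 parental arrays on each probe set, and the WT-actin arrays spread widely.

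Of the other Mediator genes, none reached an unadjusted p under 0.05 in limma on its brightest probe set except MED17 in NLS-actin against WT-actin cells. In the head module, MED17, which anchors the contact with Pol II, had 953, 966 and 1067 in NLS-actin cells, 1181, 1332 and 1539 in WT-actin cells and 1311, 1024 and 1210 in the parental line. NLS-actin arrays were all below WT-actin arrays (-0.43 on the log2 scale, unadjusted p = 0.022, adjusted p = 0.391) and overlapped with the parental ones (-0.24). Its 2 other probe sets gave -0.30 and 0.25 against WT-actin cells. MED8 varied least of the 54 genes within lines, with a standard deviation of 0.05 on the log2 scale. It measured 1651, 1557 and 1642 in NLS-actin cells, 1802, 1876 and 1953 in WT-actin cells and 1562, 1607 and 1668 in the parental line. WT-actin arrays lay above both other lines, by a log2 difference of 0.22 over the parental line (adjusted p = 0.786). Its other probe sets overlapped and gave -0.10, the opposite sign, and 0.30 in WT-actin against parental cells. MED20, the third head subunit measured, had log2 fold changes of 0.03 and -0.07 in NLS-actin and WT-actin cells.

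Besides MED1, the middle module held 2 genes, MED21 and MED10, whose NLS-actin arrays were all below the parental ones on the brightest probe set. MED21, which pairs with MED7 in a hinge of the complex, read 1190, 1135 and 1011 in NLS-actin cells, 1255, 1267 and 1222 in WT-actin cells and 1732, 1246 and 1206 in the parental line. NLS-actin cells had a difference of -0.31 on the log2 scale (adjusted p = 0.821). Parental replicate 1 was far above the other parental arrays, and over the arrays left out in turn the value ranged from -0.41 to -0.14. The second probe set of MED21 went the other way, at 1033, 1014 and 983 in NLS-actin cells, 883, 921 and 1044 in WT-actin cells and 894, 940.5 and 885 in the parental line. Every NLS-actin array was above every parental array there, with a log2 difference of 0.16. MED10, a dimmer gene, had 176.6, 161 and 122.6 in NLS-actin cells, 140.1, 172.5 and 343.3 in WT-actin cells and 183.9, 176.7 and 220.5 in the parental line. Its highest NLS-actin and lowest parental values, 176.6 and 176.7, were nearly the same. The log2 difference of MED10 was -0.35 with a 95% interval of -1.08 to 0.39. MED26, a subunit linked to elongation factors, measured 2043, 1481 and 1680 in NLS-actin cells, 1440, 1914 and 1574 in WT-actin cells and 1919, 1485 and 1732 in the parental line, with overlapping lines. The log2 difference was 0.01 in NLS-actin cells. MED4 and MED7 had log2 fold changes of 0.18 and -0.03 in NLS-actin cells. The second brightest probe set of MED7 read 763, 937 and 643 in NLS-actin cells, 448, 436 and 756 in WT-actin cells and 751, 1030 and 918 in the parental line. WT-actin replicates 1 and 2 were the lowest there, and the log2 difference was -0.76 in WT-actin against parental cells (unadjusted p = 0.00766, adjusted p = 0.645) and 0.55 in NLS-actin against WT-actin cells (unadjusted p = 0.0402, adjusted p = 0.605), while the brightest gave 0.04 and -0.07.

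In the tail, where most activators dock, and in the scaffold, MED15 measured 366, 353 and 374 in NLS-actin cells, 248, 458 and 367 in WT-actin cells and 471, 521 and 433 in the parental line. NLS-actin arrays lay below the parental arrays (log2 fold change -0.38, adjusted p = 0.838), and WT-actin cells gave -0.45 with overlap, a value that was -0.14 without the 3 departing arrays. MED14, the backbone of Mediator, had 2090, 1650 and 2187 in NLS-actin cells, 1929, 1909 and 1627 in WT-actin cells and 2315, 1966 and 1995 in the parental line. WT-actin arrays were all below the parental arrays (log2 fold change -0.20, adjusted p = 0.849), and NLS-actin arrays overlapped with them (-0.09). MED16 and MED23, both of the tail, had log2 fold changes of 0.06 and -0.18 in NLS-actin cells. MED24 was read by a probe set near the floor of the array, with signals of 17.3, 4.19 and 3.07 in NLS-actin cells, 6.84, 1.88 and 9.15 in WT-actin cells and 7.3, 26.2 and 34.3 in the parental line. Its log2 fold changes of -1.63 and -1.94 in NLS-actin and WT-actin cells had 95% intervals of -3.73 to 0.48 and -4.04 to 0.17.

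The kinase module, which can hold Mediator off the polymerase, consists of CDK8, its cyclin CCNC, MED12 and MED13. CDK8 measured 4976, 3953 and 4501 in NLS-actin cells, 4737, 4344 and 4202 in WT-actin cells and 3762, 4332 and 4413 in the parental line. The lines overlapped, with log2 fold changes of 0.10 and 0.09 in NLS-actin and WT-actin cells and 95% intervals of -0.19 to 0.39 and -0.20 to 0.38. MED12, which activates CDK8, had 610.5, 685 and 573 in NLS-actin cells, 607, 461 and 525 in WT-actin cells and 673, 604 and 577 in the parental line. Its log2 fold changes were 0.01 in NLS-actin and -0.22 in WT-actin cells, with overlapping arrays. For MED13, the link between the module and the core, the signals were 6144, 5157 and 6417 in NLS-actin cells, 7833, 6924 and 5728 in WT-actin cells and 5252, 5266 and 5904 in the parental line. WT-actin replicates 1 and 2 were above all other arrays (log2 fold change 0.31, adjusted p = 0.753), and the value without the 3 departing arrays was 0.18. The second brightest probe set of MED13 gave -0.18, the opposite sign. CCNC had log2 fold changes of -0.05 in NLS-actin and 0.14 in WT-actin cells. CDK9, the kinase of P-TEFb, had a dim probe set with signals of 61.7, 119 and 103 in NLS-actin cells, 28.2, 41.6 and 103 in WT-actin cells and 42.5, 169.7 and 69.1 in the parental line. The spread within each line was wide. The 95% interval of NLS-actin cells against parental cells was -1.07 to 1.48, so that the interval reached past 2-fold in both directions.

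The widths of the intervals limit how large a difference these arrays could have missed. The 95% interval of the log2 fold change lay within -1 to 1, that is within 2-fold, for 49 of 54 genes in NLS-actin cells against parental cells, for 52 in WT-actin cells against parental cells and for 50 in NLS-actin against WT-actin cells. It did so for 45.6%, 45.4% and 43.7% of all genes and for 75.2%, 74.9% and 72.2% of those above the median level. CDK9 and MED24 were outside in each comparison, MED1 and MED10 in both that involve NLS-actin cells, and POLR2E in NLS-actin cells against parental cells. Of the 54 genes, 53 were above the median level. Within lines the genes varied little, with a median standard deviation of 0.19 on the log2 scale, against 0.27 for genes above the median level and 0.45 for all genes. The genes set beside them were not matched to them in signal level. The part of that level in the narrower spread and intervals was not tested.

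**Figure D4:**
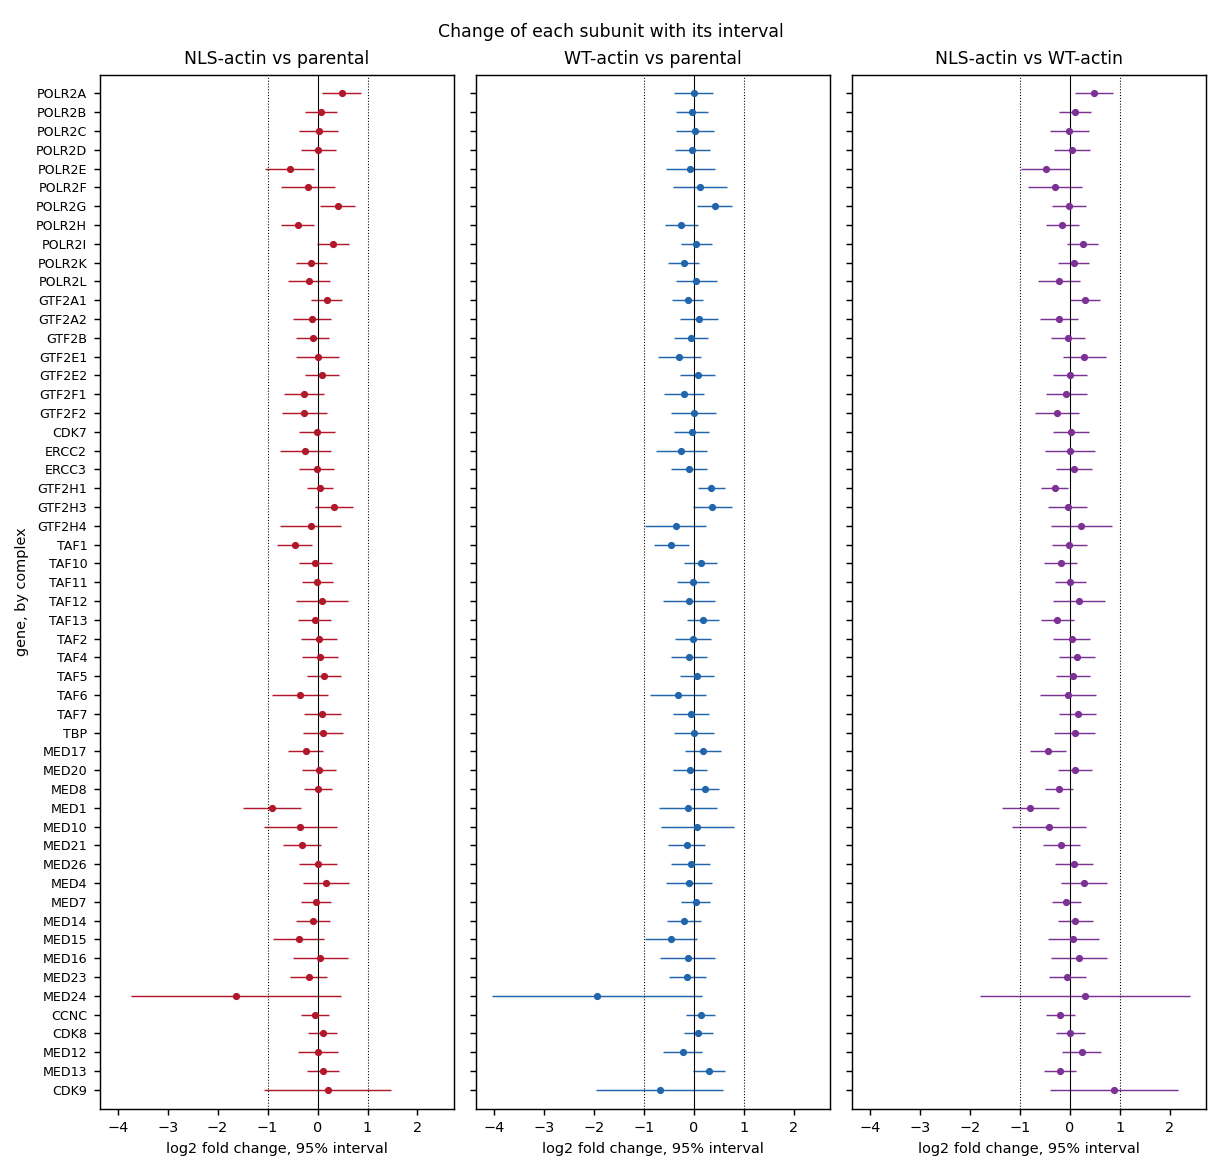
Points are log2 fold changes of the 54 genes (rows, by complex) and bars their 95% intervals from limma, in NLS-actin against parental, WT-actin against parental and NLS-actin against WT-actin cells, with dotted lines at 2-fold. Intervals of most genes lie between the dotted lines, MED1 lies furthest left of the well-measured genes in the panels with NLS-actin cells, and CDK9 and MED24 have the widest bars.

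With the thresholds of the methods, that is a fold above 2 together with an unadjusted p under 0.05, met by any probe set of a gene, 2 of the 54 genes passed in NLS-actin cells against parental cells, where 6.41% of all genes did. MED1 passed with its 3 dimmer probe sets, which were all above the median level, but not with its brightest, and MED14 with a dim one alone (2.57, 9.62 and 9.1 in NLS-actin cells, 6.66, 9.74 and 28.1 in WT-actin cells and 12.5, 23.4 and 44.9 in the parental line), which gave -1.96 on the log2 scale while the 4 other MED14 probe sets ranged from -0.59 to -0.09. In WT-actin cells TAF1 passed (5.53% of all genes) with a dim probe set, at 0.678, 1.08 and 0.714 in WT-actin cells against 9.39, 11.1 and 16.1 in the parental line. Against WT-actin cells, MED1 and POLR2B passed (8.23% of all genes), POLR2B with a dim probe set (log2 fold change 2.69) while its brightest probe set gave 0.10. In NLS-actin cells against parental cells, 37 of the 54 genes had more than 1 probe set, and 31 had more than 1 above the median level. Of these 31, the signs of the probe sets above that level were alike for 15, all lower for 11 and all higher for 4. In WT-actin against parental cells they were alike for 16, all lower for 11 and all higher for 5. In NLS-actin against WT-actin cells they were alike for 14, all lower for 6 and all higher for 8. The level is a mean log2 signal of 5.07, which the dim probe set of CDK9 also passes. The same counts over all genes were not taken. MED26, MED14 and MED12 had probe sets that spread most, between 1.49 and 2.09 on the log2 scale, with the extreme value of each on a probe set near the floor of the array.

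Genes that work with this machinery were described from 3 further lists. Of 21 measured genes for other subunits of the same complexes, 0 passed an adjusted p of 0.05 in limma in NLS-actin cells against parental cells. At an unadjusted p under 0.05, 3 were lower and 0 higher (14.3%, against 3.96% of all genes lower and 2.48% higher). These were TAF3, the TFIID subunit that reads a histone mark of active promoters (454, 395 and 464 in NLS-actin cells, 488, 654 and 623 in WT-actin cells and 833, 570.2 and 608 in the parental line, log2 fold change -0.60, adjusted p = 0.554), CCNH, the cyclin partner of CDK7 (log2 fold change -0.33, adjusted p = 0.714), and MED22 of the Mediator head (log2 fold change -0.41, adjusted p = 0.741). Their NLS-actin arrays were all below the parental arrays. MNAT1, which joins CDK7 and CCNH, was lower in WT-actin cells at an unadjusted p under 0.05 (log2 fold change -0.41, adjusted p = 0.541) and had 0.04 in NLS-actin cells. In WT-actin against parental cells, 3 of these 21 genes were under that p as well (14.3%, 1 higher and 2 lower, MNAT1 among them). Of 21 measured genes for pausing and elongation, 0 passed at either p in both comparisons with the parental line. Among 18 measured subunits of Pol I and Pol III, POLR3D was lower at an unadjusted p under 0.05 in NLS-actin cells (617, 429.9 and 525 in NLS-actin cells, 558, 547 and 730.1 in WT-actin cells and 709.7, 1133 and 726 in the parental line, log2 fold change -0.69, adjusted p = 0.524) and 0 passed an adjusted p. It was 1 of 18 genes (5.56%, against 6.44% of all genes in either direction). In WT-actin cells against parental cells, 1 gene of these 3 lists was higher (CCNT1, a cyclin of P-TEFb, log2 fold change 0.38) and 3 lower (MED9, MNAT1 and POLR3E) at an unadjusted p under 0.05, or 6.67% of their 60 genes against 6.69% of all genes, and 0 passed an adjusted p in limma. In NLS-actin against WT-actin cells, 3 were higher (MNAT1, POLR3E and POLR3K) and 2 lower (CCNH and CDK12), or 8.33% against 9.47% of all genes, again with 0 at an adjusted p. Over the same 60 genes, NLS-actin against parental cells gave 4 at an unadjusted p under 0.05 (6.67% against 6.44% of all genes). The medians of the 3 lists in NLS-actin cells against parental cells were -0.07, -0.02 and -0.06.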

How the data were processed

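Total RNA of the 9 samples was amplified and hybridized to Affymetrix U133 Plus 2.0 arrays by the authors, who deposited MAS5 signals, a linear intensity per probe set; the MAS5 version, its scaling target and the array test are not given in the sources used here. Signals were taken to log2 with no offset and no filter, and 62 control probe sets were left out. Of 54613 probe sets, 41091 named 1 gene symbol, 1801 several and 11721 none in GEO's platform annotation; symbols were updated through the Entrez number for 41037 and kept for 54. Each gene was read by its brightest probe set (1 of MED24 that also names MIR6884 was left out), and a second fit used all probe sets. Signals of different probe sets are not compared with each other.

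limma 3.58.1 in R 4.3.3 fitted 1 mean per line to all 9 arrays (lmFit, eBayes with an intensity trend), and p values were adjusted by Benjamini-Hochberg over all 19775 genes. With 3 arrays per line, exact permutation cannot go below p = 0.1, so no permutation test is given. The labels do not say whether the arrays of a line come from separate cultures, so p values measure the spread between arrays, which may be technical. In simulated data for NLS-actin against parental cells, 200 of 19775 genes were changed, all of them drawn from genes above the median level. Of these, 44% of 2-fold and 81.8% of 4-fold changes were recovered at 5.35% false calls. Of the 95% intervals of unchanged genes, 94.8% held the true value, and intervals of changed genes were not checked. Noise was drawn independently for each array, whereas residuals of the real arrays were correlated, so the simulation does not cover that correlation. The number of arrays limits the precision.

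The genes and the gene lists were chosen with earlier results of these data known, so no test is made over a list. Genes described singly were POLR2A, GTF2B, TBP, CDK7, CDK8, CDK9, MED1 and MED12 for their role, the 10 with the smallest p in each comparison with the parental line and the 6 in NLS-actin against WT-actin cells, those past a fold of 2 at an unadjusted p under 0.05 on any probe set, and the 3 with the widest spread of probe sets. Other genes stand in counts and ranges, and those named because their arrays did not overlap, or at the ends of a range, were picked after their values were seen. Residuals of same-numbered NLS-actin and parental arrays correlated at 0.24, 0.75 and 0.39 over 11979 genes above the median level, and these were treated as paired in an alternative; those of WT-actin arrays with the same-numbered arrays of the other lines ranged from -0.54 to 0.48. Among the 21 alternatives were an offset of 8.08, quantile normalization, a filter on dim probe sets, no intensity trend, 2 replicate blocks, fits of 2 lines, the mean of all probe sets, no _x_at and _s_at probe sets, Tukey's test, each array left out in turn and, chosen after seeing the data, the ACTB control ratio as a covariate and the 3 departing arrays left out together. Sequences came from RefSeq (GRCh38.p14).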

Additional observations from a re-analysis of the deposited data

How the results depend on the processing

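Of 727 values of the 35 gene results under the alternatives, 707 kept direction and side of the threshold. Several alternatives cannot change the log2 fold change, such as Tukey's test, no intensity trend or leaving out an array of the line outside the comparison. That count is therefore no measure of how firm the results are. No gene passed an adjusted p against the parental line in any fit by gene. In NLS-actin against WT-actin cells 1 gene (MED1) passed instead of 0 without the 3 departing arrays (log2 fold change -1.10, adjusted p = 0.0362) and without WT-actin replicate 1 (-1.13, adjusted p = 0.0342), so leaving out 1 array gave 0 to 1 there and 0 in both other comparisons.

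Counts at an unadjusted p under 0.05 moved most. In NLS-actin against parental cells, 6 became 2 in Tukey's test and 2 to 8 with 1 array left out (2 without NLS-actin replicate 3 or parental replicate 2, 8 without NLS-actin replicate 2). Counts of all 19775 genes moved as well, from 490 higher and 783 lower in the main fit to 272 and 460 in Tukey's test. They were 470 and 707 without NLS-actin replicate 3 and 587 and 640 without parental replicate 2. Without NLS-actin replicate 2 they were 436 and 1028. In WT-actin against parental cells, 3 became 1 with the replicate block within parental and NLS-actin arrays, 5 with the mean of all probe sets, 1 without the 3 departing arrays and 1 to 7 with 1 array left out (1 without parental replicate 2, 5 without NLS-actin replicate 2 or parental replicate 1, 7 without WT-actin replicate 3). Over all genes, 492 higher and 831 lower became 400 and 539 without parental replicate 2. Without WT-actin replicate 3 they became 903 and 1136. In NLS-actin against WT-actin cells, 4 became 0 with that block, in which WT-actin arrays share no pairing, 7 with the ACTB ratio and 1 to 7 with 1 array left out (1 without NLS-actin replicate 1, 7 without WT-actin replicate 3). Over all genes, 1065 higher and 808 lower became 1293 and 1006 with the ACTB ratio. They were 875 and 766 without NLS-actin replicate 1, 1074 and 818 without WT-actin replicate 3, and 768 and 774 with that block. With that block NLS-actin against parental cells gave 7, and the replicate block over all arrays gave 6, 3 and 4 in the 3 comparisons with 0 at an adjusted p, so no adjusted call changed with pairing. Past the thresholds of the methods, 2 genes in NLS-actin cells became 1 in Tukey's test, 1 with the filter on dim probe sets, 3 without the 3 departing arrays and 1 to 5 with 1 array left out (5 without NLS-actin replicate 1, 1 without parental replicate 3). Medians of the 54 genes ranged, with 1 array left out, from -0.06 to 0.02 in NLS-actin and from -0.07 to 0.02 in WT-actin against parental cells, and from -0.04 to 0.04 between the actin lines.

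The cause of the reversals was not tested. In NLS-actin against parental cells, the ACTB ratio gave 0.0939 for CDK7 and -0.0446 for MED12, leaving out the 3 departing arrays 0.052 and -0.0753, and the mean of all probe sets -0.11 for CDK8 and -0.10 for CDK9. That mean also gave -0.01 for GTF2H3 in WT-actin cells, whose main value was 0.37 and whose second probe set is above the median level, and -0.53 for POLR2A in NLS-actin against WT-actin cells, where the other POLR2A probe sets are dim. With 1 array left out, CDK7 ranged from -0.0996 to 0.0725, CDK9 from -0.25 to 0.75, MED12 from -0.0601 to 0.0736, MED14 from -0.168 to 0.0354, MED26 from -0.11 to 0.12 and TBP from -0.0114 to 0.188.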

Other observations

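The listed subunits of Pol II split by whether other polymerases share them, on the brightest probe set of each gene. The division was made after the values were seen and is given with no test. In NLS-actin against parental cells, the 6 listed subunits of Pol II alone (POLR2A, POLR2B, POLR2C, POLR2D, POLR2G and POLR2I) all had positive log2 fold changes. They ranged from 0.01 to 0.48 with a median of 0.19. Of these, POLR2D and POLR2C had 0.01 and 0.02, with standard errors of 0.16 and 0.18. The 5 shared with Pol I and Pol III (POLR2E, POLR2F, POLR2H, POLR2K and POLR2L) all had negative ones, from -0.56 to -0.13 with a median of -0.18. POLR2J, from the list of other subunits and not among the shared ones, had -0.07 in that comparison, against the direction of the 6. Other probe sets did not all follow, since the second of POLR2B, nearly as bright as the first, gave -0.08 and the dim second one of POLR2F 0.43. In WT-actin against parental cells 3 of the 6 and 2 of the 5 were positive, with medians of 0.01 and -0.07. The split of WT-actin cells was not compared with that of NLS-actin cells, since both use the parental arrays.

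NLS-actin replicate 2 and WT-actin replicate 1 each held the lowest value of their line for 30 of the 54 genes (55.6%), against 38.7% and 33.4% of the 11979 genes above the median level. Parental replicate 2 did so for 22 (40.7% against 31.2%), and parental replicate 1, with the lowest ACTB control ratio of its line (4.998), for 21 (38.9% against 29.9%). NLS-actin replicate 2, WT-actin replicate 1 and parental replicate 2 had the highest ACTB control ratio of their lines, at 12.8, 14.9 and 7.96. Of these arrays, only WT-actin replicate 1 also had the highest GAPDH control ratio of its line. The part of RNA quality in the low values was not tested.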
